A study of Mus musculus with 4 samples.

Results

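The cytosolic ribosomal protein genes encode the proteins of the ribosome that works outside mitochondria, and their messages were read here in the whole lung of the C57BL/6 mouse embryo at day 14.5 of gestation. Members are the rows whose Ensembl identifier is a protein-coding gene of GENCODE release M21 with a symbol that starts with Rpl or Rps followed by a digit, together with Rplp0, Rplp1, Rplp2 and Rpsa. S6 kinase genes, Rps19bp1 and symbols marked as pseudogenes were left out by the same rule. It found 85 members among the 52636 rows of the table, namely 77 canonical genes and 8 paralogs of a canonical gene. The controls (Control 1 and 2) are labelled wild type, and Yap CKO 1 and 2 carry a conditional knockout of Yap, the transcriptional coactivator of the Hippo pathway, in the epithelium. The labels name neither the Cre driver nor the deleted exons, and do not say whether libraries came from separate embryos or litters. A p-value here thus measures the spread between libraries, which may be technical, though Control 1 and 2 differed in the sex-linked gene Xist (below). The epithelium is 1 of several tissues in a whole lung, so fewer cells of a type and less RNA per cell cannot be told apart.

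Each ribosome holds 1 copy of most of these proteins, and cells make them in matched amounts. The messages of vertebrate ribosomal protein genes begin with a short run of pyrimidines, the terminal oligopyrimidine tract, through which mTOR signalling controls how strongly they are translated. In growing tissue such as embryonic lung they belong to the most abundant messages. Being abundant, they have also been copied back into the genome many times by reverse transcription, which has left intronless copies, mostly pseudogenes, that can be almost identical in sequence to the parent gene.

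Most start-site windows of members hold a run of pyrimidines, though not always at the start itself. In the windows below, taken from the RefSeq table of start sites on GRCm38.p6 (the assembly also called mm10), capitals mark a run of C followed only by C or T, at least 7 bases long, and each line holds 30 bases around the annotated start. They are shown for the member with the largest difference, a kinase substrate, a stalk protein and a member whose own row had low counts.

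Rps12, chr10:23787181-23787210, minus strand: caccgccggCCTTTTCCCCTgccgccgccg

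Rps6, chr4:86857349-86857378, minus strand: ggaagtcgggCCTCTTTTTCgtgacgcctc

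Rplp2, chr7:141447637-141447666, plus strand: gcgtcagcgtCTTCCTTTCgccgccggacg

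Rpl38, chr11:114668569-114668598, plus strand: gaagcctcgttCTTTCCCCgttctcttcgg

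The run was searched from 20 bases before to 50 bases after the start. It was present in 55 of 77 member windows (71.43%), against 29.51% of all 32851 windows of the table. On the opposite strand the shares were 16.88% and 34.03%. The table held windows for 65 members, of which 51 had a run in at least 1 window, and for 20 members it was not searched. Counted from the annotated start, the longest run began at base -4 for Rplp2, -2 for Rpl28, -1 for Rps6 and 1 for Rpl38. It began at base 9 for Rps12 and 32 for Rpl9. Rpl35a had a run at base 25 in 1 window and none in another, and Rplp0 had none. The motif CCGGAAG, searched on both strands of the whole 300-base window, was present in 35.06% of member windows and 8.858% of all windows. A match is a description of these letters and not a measured site.

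The coding sequences show how closely some copies resemble their parent. Each window below holds 60 bases of the coding sequence in GENCODE M21, lower case for the last 30 bases of 1 exon and capitals for the first 30 of the next. The sequence is the same, base for base, in the parent and in the named copy, whose annotation has 1 exon and so no intron at this point. They are shown because both members called higher (Rps12 and Rpl9) have such a copy, and because the copy of Rps27 is itself a member.

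Rps12 and Rps12-ps3: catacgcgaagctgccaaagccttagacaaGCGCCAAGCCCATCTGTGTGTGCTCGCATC

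Rpl9 and Rpl9-ps6: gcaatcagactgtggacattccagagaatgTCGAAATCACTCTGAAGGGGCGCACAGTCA

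Rps27 and Rps27rt: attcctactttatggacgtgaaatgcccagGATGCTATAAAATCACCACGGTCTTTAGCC

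Rps12 lies on chromosome 10 (23785183 to 23787275, minus strand, 6 exons), and the intron within its window runs between bases 23786764 and 23786004. Rps12-ps3 lies on chromosome 19 (59322290 to 59322783) and matches all 396 coding bases. Rpl9 lies on chromosome 5 (65388364 to 65391444, minus strand), with the intron between 65390946 and 65390854, and Rpl9-ps6 on chromosome 19 (32465865 to 32466578) matches it over 576 coding bases with 1 difference. Rps27 lies on chromosome 3 (90212522 to 90213651), and the intronless Rps27rt on chromosome 9 (114982366 to 114982739) matches all 252 coding bases.

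The libraries held 17756301 to 21333878 reads counted to genes. Replicates differed by more than sampling noise, with a chi-square per degree of freedom of 22.1 in controls (21167 genes) and 6.64 in knockouts (21835 genes). Control 2 stood apart in its content: heart muscle markers (10 of 10 listed were measured) summed to 47107 normalized counts there, against 1729 in the other control and 10579 and 1915 in Yap CKO 1 and 2. Control 1 differed from the other 3 in its sex-linked genes, with Xist at 42.6 normalized counts and at least 42729 in the others. Lung epithelial markers, all 7 measured, summed to 15717 and 14396 in the controls and 15899 and 16547 in the knockouts, so the tissue label is matched by its markers. Yap1 read 5686 and 3467 in the controls and 3209 and 4483 in the knockouts (log2 difference -0.23 ± 0.25, adjusted p = 0.683), so its level over the whole gene does not check the labels. Where 4 values of a row are given together below, replicates 1 and 2 of the controls come first, followed by replicates 1 and 2 of the knockouts.

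Member rows held a small share of the reads. The controls gave them 0.744% (95% Wilson interval 0.740 to 0.747%) and 0.606% (0.603 to 0.610%) of all counted reads, and the knockouts 0.723% (0.719 to 0.727%) and 0.714% (0.710 to 0.717%). PCR copies of a molecule are not independent, so the intervals reflect counting error alone. The share was lowest in Control 2, the library with the highest heart muscle sum, and the other 3 lay close together. The means were 0.675% ± 0.0974 in controls and 0.718% ± 0.00653 in knockouts (SD, n = 2 each), a difference of 0.0433 percentage points that was smaller than the control spread and became -0.0255 without Control 2 (two-sided exact permutation p = 1, where 0.333 is the smallest p that 2 against 2 allows).

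Most reads of ribosomal protein sequence were counted on copies. Annotated pseudogenes, genes with a -ps symbol and predicted Gm genes were aligned to the members' transcripts, and 1681 rows matched a member over at least 70% of the copy at 80% identity or more. Of these, 1274 had reads. The matched copies took 3.78%, 2.87%, 3.57% and 3.33% of reads, several times the share of the members in every library. A canonical member had a median of 16 copies and held a median of 8.31% of the reads that it and its copies held together. For 44 of the 77 canonical genes that share was under 10%, and for 9 it was over 50%. Rps27 is among these 9. Rps27rt, which has the same coding sequence, is itself a member and was not counted as its copy. The submitters' processing notes name Bowtie2, an aligner that does not split reads across introns, and featureCounts. The sources used here do not say how reads with several equal alignments were treated, so the division of reads between a member and its copies is uncertain throughout.

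**Figure D1:**
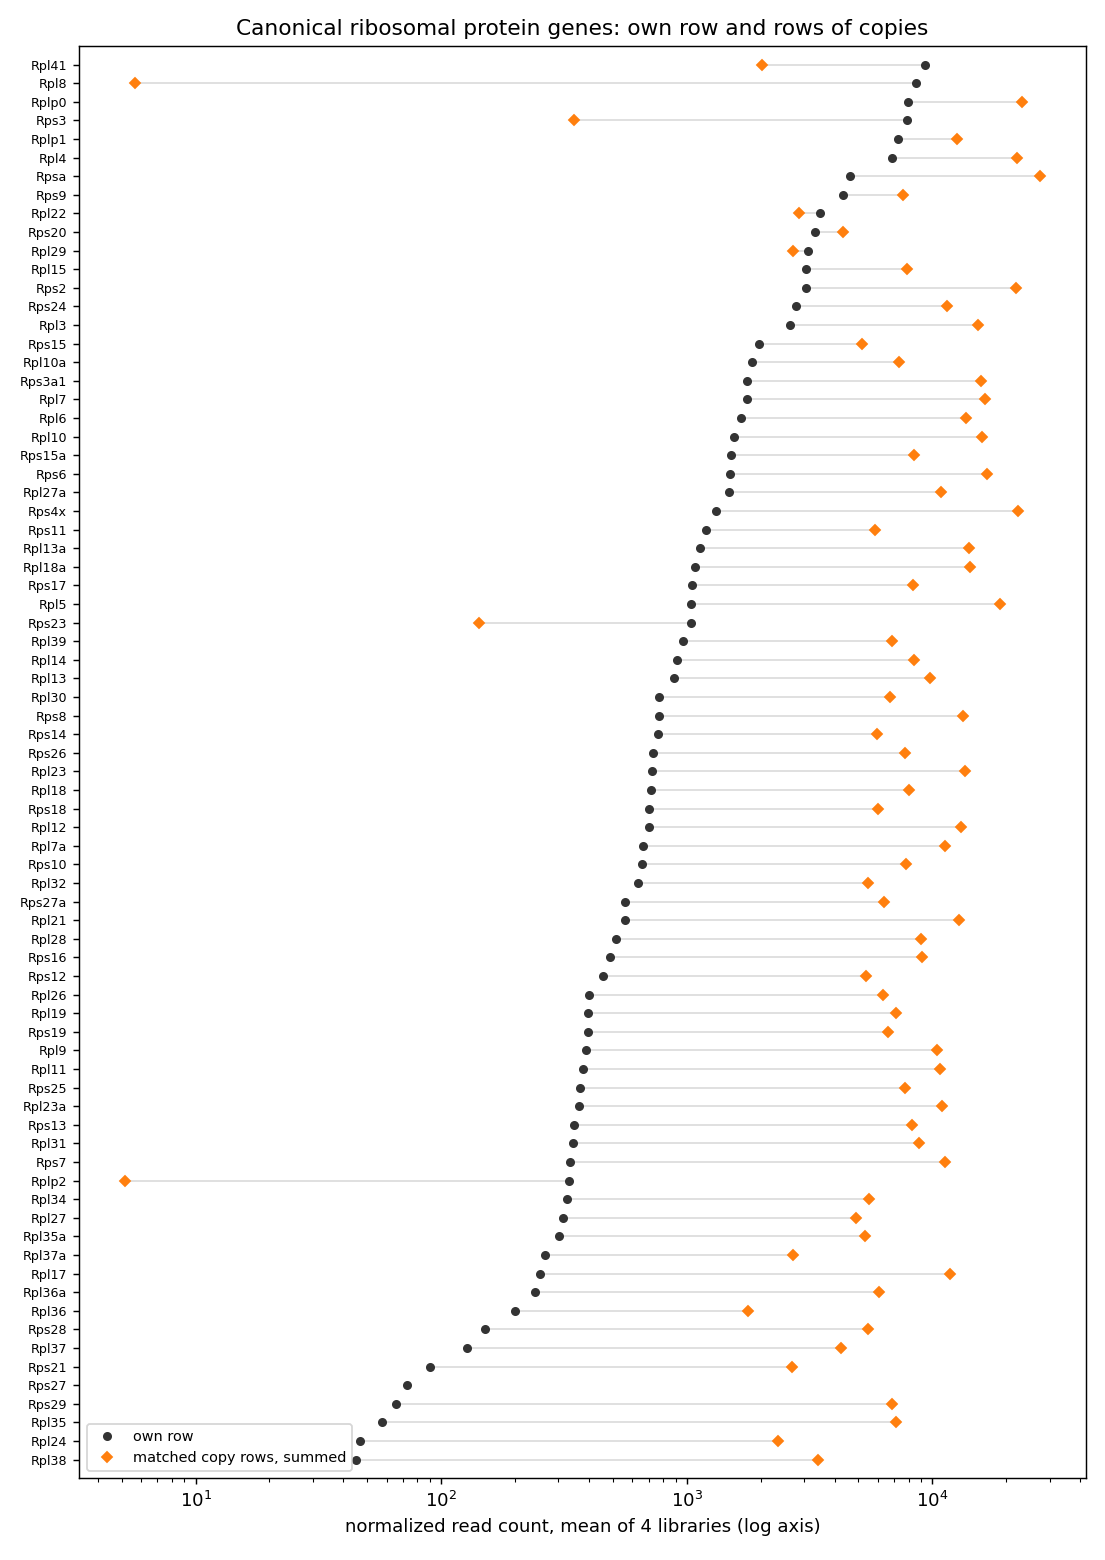
Mean normalized read count over the 4 libraries (log axis) for the canonical ribosomal protein genes shown, with a dark point for the gene's own row and an orange diamond for the sum of its matched copy rows. For most genes the diamond lies far to the right, while Rpl8, Rps3, Rps23, Rplp2, Rpl41, Rpl22 and Rpl29 have more reads on their own row than on their copies, and Rps27 has no diamond because its copies matched Rps27rt best.

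Levels per kilobase of annotated exon showed how uneven the own rows were. Among canonical members the highest was Rplp1, an acidic stalk protein, with 14474 normalized counts per kilobase. Rpl41, the shortest ribosomal protein, followed with 8028, then Rpl8 with 6338, and Rplp0, the base of the stalk, had 4811. The lowest were Rpl24 (45.3), Rpl35 (46.1), Rps27 (69.9), Rpl37 (76.0) and Rpl38 (83.2), all large subunit proteins except Rps27, and the canonical median was 389. The highest level was 319 times the lowest, although the ribosome holds these proteins in near equal numbers. Rpl35 read 46.5, 49.1, 57.7 and 75.5, and Rpl37 147, 117, 119 and 129 normalized counts. Rpl41 read 8708, 9577, 9385 and 9837, and Rpl8 9871, 7616, 9051 and 7915, and neither separated the groups. With copies added, the normalized count of a canonical gene had a median of 9155, against 729 for the own row. The levels of own rows are therefore given as counts of the row and not as a ranking of expression.

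Rps27 shows the same in 1 pair. Its own row read 82.4, 60.8, 68.3 and 80.2 normalized counts, while the intronless Rps27rt, with the same coding sequence, read 10629, 7904, 9267 and 8795. Per kilobase Rps27rt ranked first of all 85 members, at 24461. Neither row separated the groups: Rps27 differed by 0.06 ± 0.25 on the log2 scale (adjusted p = 0.921) and Rps27rt by -0.02 ± 0.15 (adjusted p = 0.956).

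Between Yap CKO and control lungs, 2 of the 82 members tested rose and 0 fell. Both were found with limma on log2(normalized count + 1), fitted to all 19472 genes with a mean of at least 10 and adjusted by Benjamini-Hochberg, with calls at an adjusted p under 0.05. Over all genes tested the same rule called 1.19% higher and 1.15% lower, so the members' counts lie near the background. At an unadjusted p under 0.05 there were 22 members, 20 higher and 2 lower, against 18.9% of all genes in either direction. edgeR on the recovered reads called 2 members higher and 0 lower (1.05% and 1.02% of all genes), and DESeq2 6 and 1 (2.36% and 3.18%). The 6 were Rps12, Rpl9, Rps27a, Rpl30, Rpl35a and Rpl5, the 1 was Rplp1, and Rpl30 is named for this call alone. These differences are on the log2(value + 1) scale, which understates the change of low genes.

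Sums of cell type markers also differed between libraries, and those of lung epithelium (given above), mesenchyme, liver, leukocytes, nerve and skeletal muscle did not overlap between groups. Over all genes tested, 50.8% did not overlap, and a sum can rest on 1 abundant gene. Sftpc read 1808 and 1951 in the controls and 3673 and 3662 in the knockouts. Of the 7 epithelial markers, 3 had a positive difference and 4 a negative one. Acta1, a skeletal muscle marker, read 1117 and 2010 against 639 and 585. Of the 4 skeletal muscle markers tested, 3 had a positive difference and 1 a negative one. The 7 lung mesenchyme markers summed to 60947 and 69474 normalized counts in the controls and 53721 and 48088 in the knockouts. Of these sums Col1a1 made up 40799 and 50689 in the controls and 32560 and 27384 in the knockouts. Both knockouts lay above both controls for 3 of the 7 markers and below for 4, so the markers had no common direction. The 7 liver markers, 4 of which passed the filter, summed to 28.1 and 70.2 in the controls and 1630 and 900 in the knockouts. Of these sums Afp made up 17.4 and 43.3 in the controls and 1157 and 639 in the knockouts. Limma called the 4 higher, where 1.19% of all genes were. Apoa2, Fgb and Serpina1a lay under the filter and overlapped between groups. Ttr, Fgb and Serpina1a were at 0 in Control 1, and Fgb also in Yap CKO 2. Erythroid markers summed to 113743, 156291, 87633 and 114633, leukocyte markers to 2545, 3325, 2479 and 2384, neural markers to 341, 746, 909 and 766, skeletal muscle markers to 1160, 2168, 885 and 656 and endothelial markers to 16382, 18173, 17395 and 16911. The 6 neural markers had 6 positive and 0 negative differences, and the 9 leukocyte markers 1 positive and 8 negative. Limma called 0 of either list. The part of such shifts between libraries in the members' differences was not tested.

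The differences of the members leaned upward by a small amount. The median log2 difference was 0.11, with quartiles of -0.02 and 0.33, and 58 of 82 were positive. All genes tested had a median of -0.0050 and quartiles of -0.18 and 0.20. Both Yap CKO libraries lay above both controls for 33 members and below both for 6, where the table as a whole had 25.2% and 25.6% of its genes, and 43 overlapped. The large subunit (46 canonical members, median 0.11, 20 above and 4 below) and the small subunit (31 members, median 0.11, 12 above and 1 below) had like medians. The size of this lean depended on the control library: without that library the median was 0.0025, with 8 members called higher and 1 lower (6.14% and 6.48% of all genes), and without Control 1 it was 0.26, with 23 called higher (6.46%). With Yap CKO 1 or Yap CKO 2 left out, 0 members were called, where 0.0103% and 0.0359% of all genes were.

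**Figure D2:**
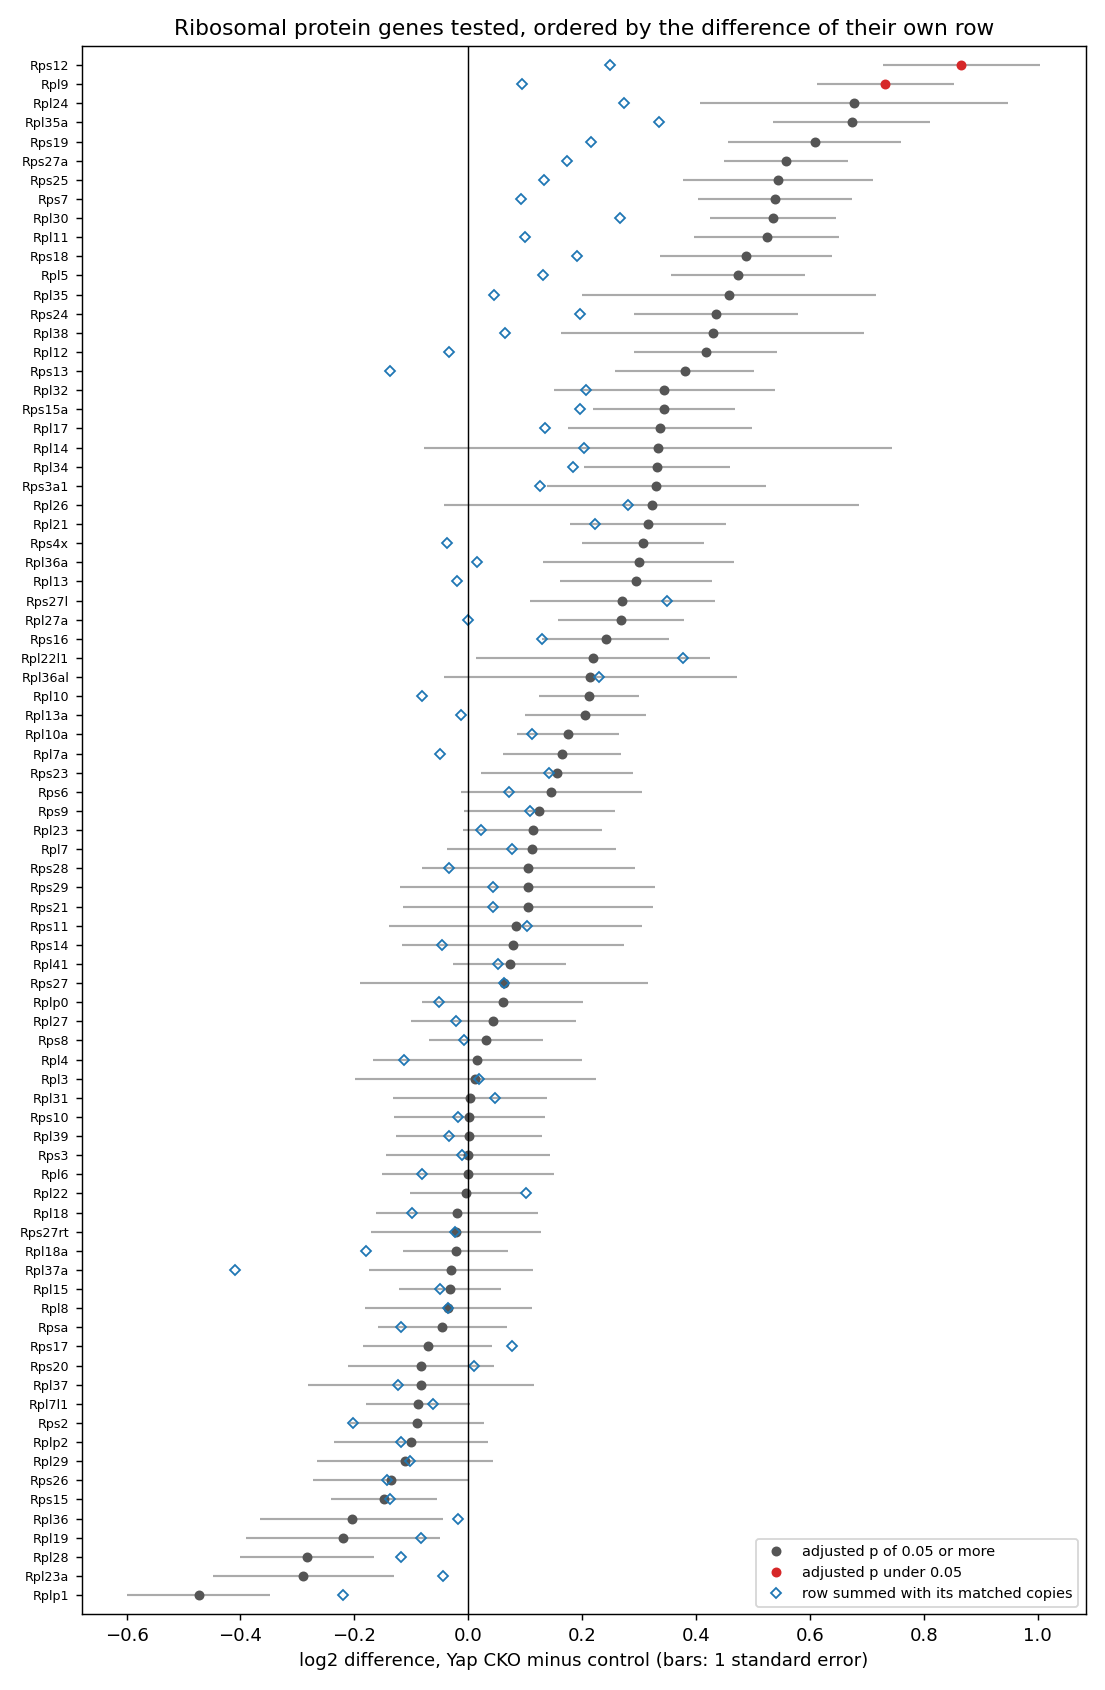
Log2 difference (Yap CKO minus control) of the ribosomal protein genes tested and shown, each on its own row as a filled point with a bar of 1 standard error, in red where the adjusted p is under 0.05, and summed with its matched copies as an open diamond. Own-row values run from -0.47 for Rplp1 to 0.87 for Rps12, and the diamond lies closer to 0 than the own row for 57 of the 82 genes tested and farther for 24, with none called.

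Adding the copies brought most differences, though not all, closer to 0. With each member summed with its matched copies and the whole table fitted again, 0 of 82 were called by limma and 0 had an unadjusted p under 0.05, where 1.31% of all rows were called higher and 1.27% lower. Such sums were not fitted with edgeR or DESeq2. The median became 0.02, with 44 positive and 38 negative values between -0.41 and 0.38. Taken alone, the copies gave a median nearer 0, a difference from the members that was not tested. Of 439 copy rows tested, limma and edgeR called 0 in either direction, and the median log2 difference was 0.03. At an unadjusted p under 0.05 there were 18 copies with limma and 23 with edgeR, where limma had 18.9% of all genes. DESeq2 called 1 copy higher, Gm8942, a copy of Rps24, named after its value was seen. Both Yap CKO libraries lay above both controls for 57 of the 439 copies and below for 56, where all genes tested had 25.2% and 25.6%. Members and copies together took 4.53%, 3.48%, 4.29% and 4.05% of reads, again lowest in Control 2.

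Rps12 (ENSMUSG00000061983), a small subunit protein, rose most. Its row read 292 and 354 normalized counts in the controls and 578 and 596 in the knockouts, with no overlap. The difference was 0.87 ± 0.14 on the log2 scale (limma, adjusted p = 0.0355). The call held in 12 of 20 alternatives and was lost without the filter on low values (adjusted p = 0.100), without the intensity trend (0.125), with length and GC removed (0.0523), with members scaled to equal sums (0.123), when summed with copies and without either Yap CKO library (0.370 and 0.342). Its 26 copies held most of the reads, and the own row was 5.03%, 7.34%, 8.90% and 9.76% of the reads of gene and copies together. The copy Rps12-ps3 read 2745, 2320, 3052 and 2826, so that the knockouts lay higher by a smaller step (0.22, adjusted p = 0.357). Rps12-ps9 overlapped between groups at 1489, 1233, 1555 and 1411. Summed, gene and copies read 5801, 4827, 6490 and 6100, a log2 difference of 0.25 with an adjusted p of 0.303.

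Rpl9 (ENSMUSG00000047215), a large subunit protein, also rose on its own row. The controls read 291 and 296 and the knockouts 498 and 478 normalized counts, a difference of 0.73 ± 0.12 (limma, adjusted p = 0.0370). The call held in 12 of 20 alternatives and was lost with the replicate number as a block (adjusted p = 0.0658), without the filter (0.0913), without the trend (0.113), with members scaled to equal sums (0.124), when summed with copies and without either Yap CKO library (0.422 and 0.340). Here the controls differed from each other by little and the groups were clearly apart. Its 40 copies were led by Rpl9-ps6, at 4842, 3721, 4676 and 4448, and Rpl9-ps4, at 3350, 2756, 3133 and 3145. Both copies were lowest in Control 2 and overlapped between groups. Summed with all copies, Rpl9 read 11764, 9344, 11283 and 11101, with a log2 difference of 0.09 and an adjusted p of 0.744.

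**Figure D3:**
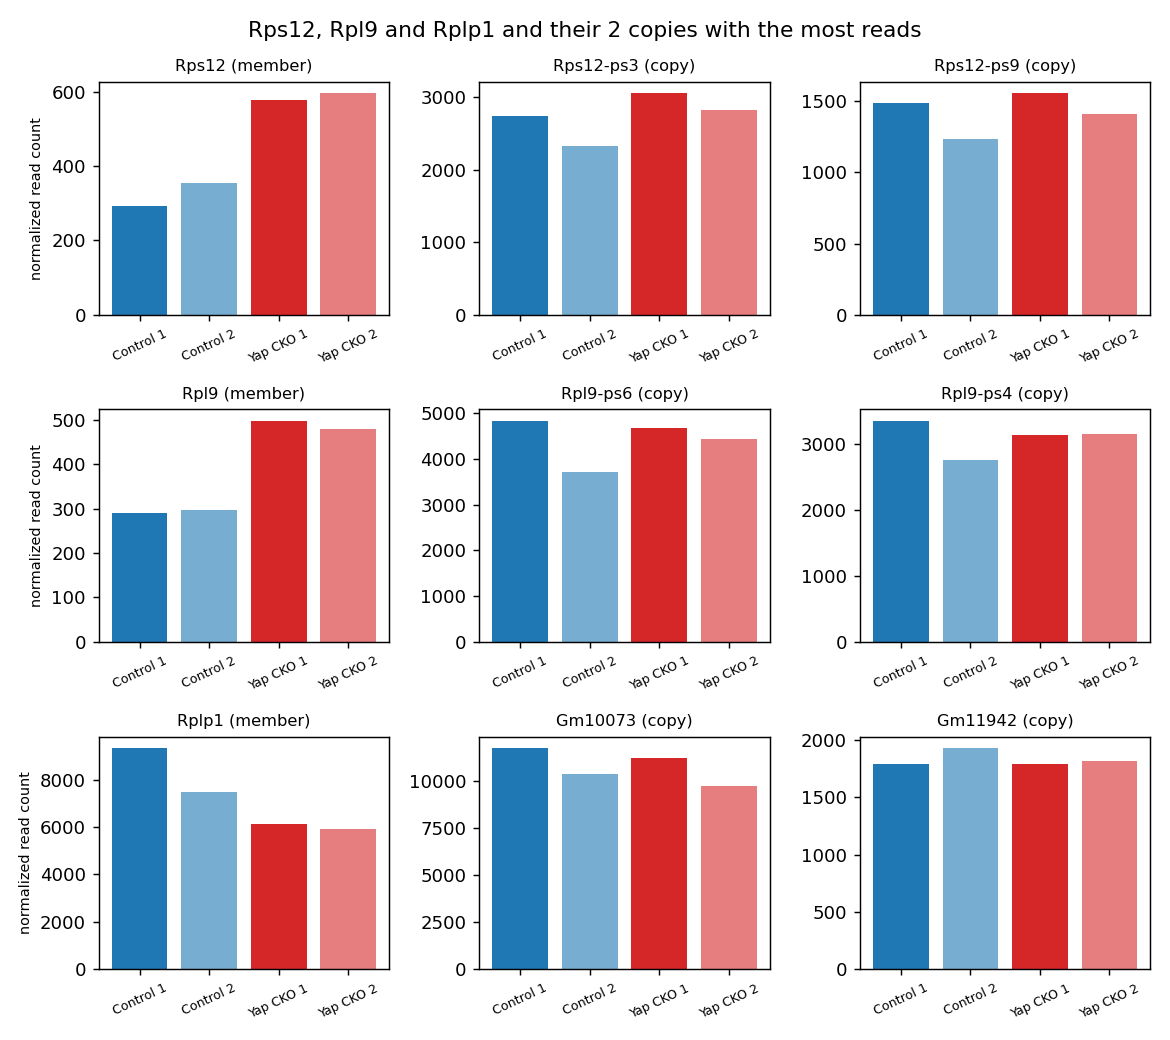
Normalized read count in each of the 4 libraries for Rps12, Rpl9 and Rplp1 (left) and for the 2 copies of each with the most reads, on separate axes that all start at 0. The own rows separate the groups, upward for Rps12 and Rpl9 and downward for Rplp1, while of the 6 copies shown Rps12-ps3 alone has both Yap CKO libraries above both controls.

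The members next in size were not called by limma or edgeR, and DESeq2 called Rpl35a and Rps27a (adjusted p = 0.0334 and 0.0187). Rpl24 read 34.9 and 36.3 in the controls and 64.4 and 51.3 in the knockouts (0.68 ± 0.27, adjusted p = 0.246), at counts low enough to leave a wide error. Rpl35a read 247 and 220 against 363 and 381 (0.67 ± 0.14, adjusted p = 0.0678). Rps19, whose human counterpart is mutated in Diamond-Blackfan anaemia, read 353 and 277 against 483 and 472 (0.61 ± 0.15, adjusted p = 0.103). All 3 had both knockouts above both controls, and summing with copies gave 0.27, 0.34 and 0.22. Rps27a, made as a fusion with ubiquitin, read 444 and 463 against 681 and 655 (0.56 ± 0.11, adjusted p = 0.0591), and 0.17 with its copies.

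Rpl5 and Rpl11 bind the 5S ribosomal RNA and, when not built into ribosomes, bind MDM2, the ubiquitin ligase that keeps p53 low. Rpl5 read 947 and 803 in controls and 1161 and 1264 in knockouts (0.47 ± 0.12, adjusted p = 0.103), and Rpl11 read 324 and 296 against 459 and 433 (0.52 ± 0.13, adjusted p = 0.0980). Neither passed limma's threshold, DESeq2 called Rpl5 (adjusted p = 0.0369), and the groups did not overlap on either row. With copies added the differences were 0.13 and 0.10. Of 23 p53 target genes listed, 0 were called higher and 1 lower by limma and by edgeR. Over all genes, limma called 1.19% higher and 1.15% lower. DESeq2 added Mdm4 as higher, a gene named after its value was seen. The 1 lower was Btg2, an antiproliferative gene, which fell from 1973 and 1979 to 1384 and 1263 (-0.58 ± 0.09, adjusted p = 0.0370). Mdm2 differed by 0.34 (adjusted p = 0.184) and Cdkn1a by 0.23 (adjusted p = 0.674). The median of that list was 0.12 with limma and -0.0023 with edgeR, so it had no settled direction.

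The stalk proteins recruit translation factors to the ribosome. Rplp1 had the largest downward difference of any member, at 9350 and 7484 in the controls and 6132 and 5923 in the knockouts. The groups did not overlap, and the difference of -0.47 ± 0.13 was not called by limma (adjusted p = 0.118). DESeq2, which called 3.18% of all genes lower, called Rplp1 lower (adjusted p = 0.00672). Without Control 2, which leaves a lone control, the limma difference was -0.63. Its most abundant copy, the predicted gene Gm10073 on chromosome 8, read 11761, 10347, 11215 and 9709, and summed with all 17 copies Rplp1 differed by -0.22 (adjusted p = 0.393). Rplp0, the base of the stalk, overlapped between groups at 8847, 6839, 8513 and 7726 (0.06 ± 0.14, adjusted p = 0.855). Rplp2, the partner of Rplp1, read 325, 359, 333 and 305 (-0.10, adjusted p = 0.740), with almost no reads on copies.

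Other members with a lower mean in the knockouts had small differences. Rpl23a read 438, 363, 298 and 356 (-0.29, adjusted p = 0.388), Rpl28 536, 600, 471 and 460 (-0.28, adjusted p = 0.263) and Rpl36 231, 196, 184 and 185 (-0.20, adjusted p = 0.551). Rps15 read 2141, 1984, 1901 and 1820 (-0.15, adjusted p = 0.451). In these 4 both knockouts lay below both controls, by a margin of a few counts for Rpl23a. Rpl19 overlapped, at 494, 365, 376 and 353 (-0.22, adjusted p = 0.544).

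Members known for a role outside the common core did not pass the threshold either. Rps6, the substrate of the S6 kinases and a readout of mTOR signalling at the protein level, read 1662, 1199, 1604 and 1520 (0.15 ± 0.16, adjusted p = 0.676). Rpsa, also known as the laminin receptor, read 5151, 4264, 4543 and 4540 (-0.05, adjusted p = 0.866). Rpl38, which is mutated in the Tail-short mouse with its skeletal patterning defects, read 37.8, 38.6, 47.1 and 56.9 (0.43 ± 0.27, adjusted p = 0.446). Of these 3, Rpl38 alone had groups that did not overlap. The X chromosome carries 4 members, Rps4x, Rpl10, Rpl36a and Rpl39. Rps4x read 1261 and 1103 against 1413 and 1504 (0.31, adjusted p = 0.198), Rpl10 1453 and 1442 against 1681 and 1674 (0.21, adjusted p = 0.261), and Rpl39 1041, 882, 893 and 1029 (0.0011, adjusted p = 0.997). Control 1, which differs in its sex-linked genes, was the higher control in all 3 of these.

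**Figure D4:**
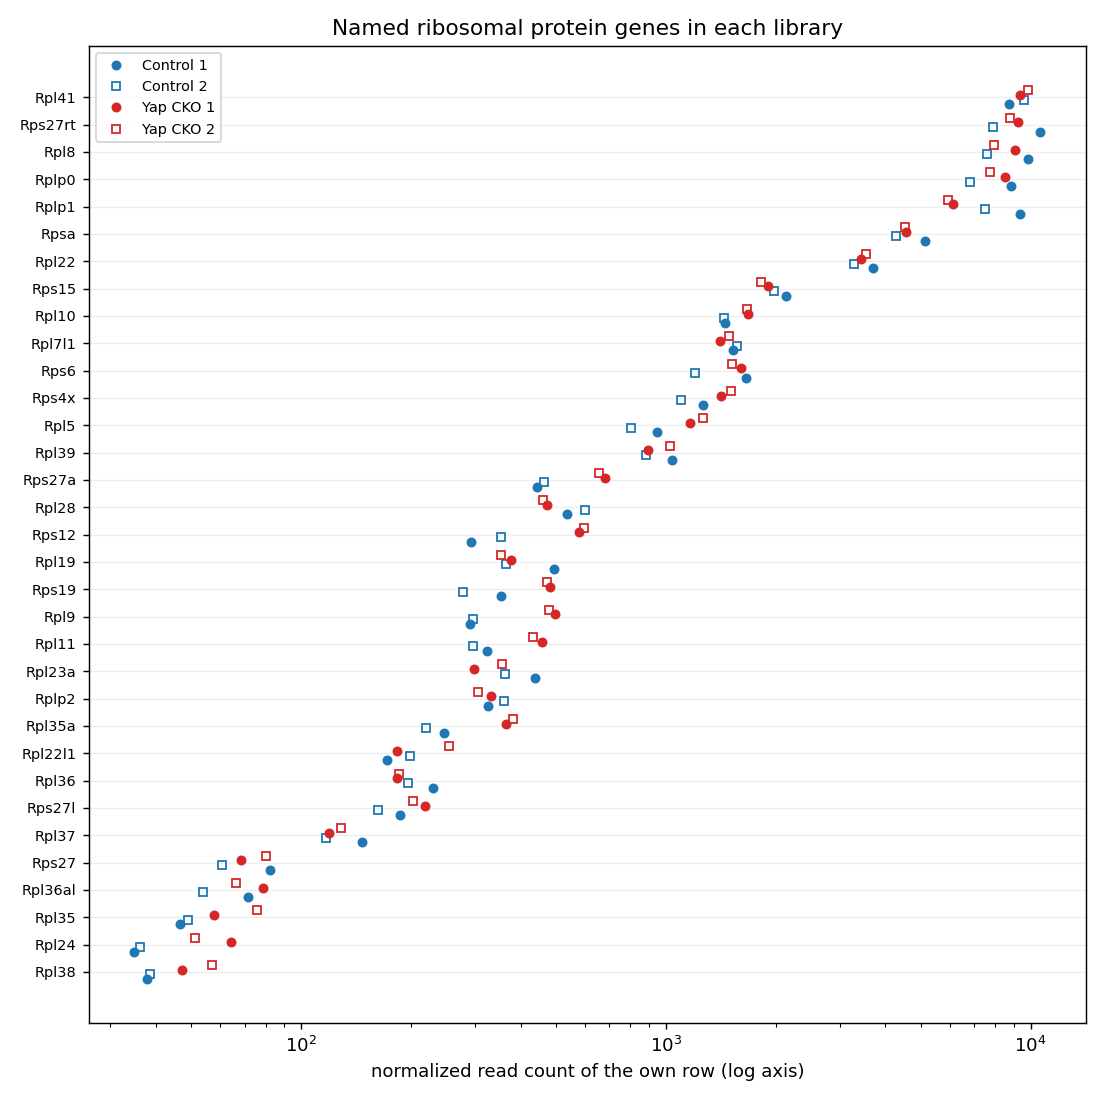
Normalized read count (log axis) of the own row of each named ribosomal protein gene in the 4 libraries, controls in blue and Yap CKO in red, ordered by level. The groups separate for many of these genes, among them Rps12, Rpl9, Rps27a and Rplp1. Control 2 (open blue square) is the lowest library for most of the abundant genes such as Rpl8 and Rplp0.

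Of the 8 paralogs, 5 were tested, Rps27rt among them, and 3 lay under the filter. Rpl22l1, which can take the place of Rpl22 in the ribosome, read 172, 199, 183 and 254 (0.22 ± 0.21, adjusted p = 0.625), and Rpl22 itself 3700, 3290, 3420 and 3536 (-0.0047, adjusted p = 0.985). Rps27l, a p53-inducible paralog of Rps27, read 187 and 163 against 219 and 202 (0.27, adjusted p = 0.433). Rpl7l1, a relative of Rpl7, read 1523 and 1563 against 1410 and 1494 (-0.09, adjusted p = 0.660), and Rpl36al read 71.7, 53.8, 78.8 and 66.2 (0.21, adjusted p = 0.707). The 3 members under the filter were the testis-enriched Rpl10l and Rpl39l and the muscle-enriched Rpl3l. Rpl10l read 0.969, 0, 0.961 and 0.932, Rpl39l 1.94, 0, 2.88 and 2.80, and Rpl3l 1.94, 4.68, 1.92 and 0 normalized counts. A library's 3 reads amount to 2.80 to 3.51 normalized counts, and all these values lie at or under that amount except Rpl3l in Control 2. Rpl3l was highest in Control 2, the library with the highest heart muscle sum, on 2, 4, 2 and 0 reads. These reads are too few to compare libraries, and a link to heart muscle was not tested.

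Among canonical members the difference varied with features of the row. Annotated exon bases that belong to no protein-coding transcript of the gene, such as retained introns, had a median of 724 per canonical member, and 1383 of the 2027 exon bases of Rps12 were of this kind. Over the 77 canonical members, which share the 4 libraries and their depths, Spearman's rho between the log2 difference and these extra bases was 0.38. It was -0.49 with the level per kilobase, -0.42 with the share of reads on the own row and -0.37 with GC content. It was also -0.33 with the mean count of the own row, 0.30 with exon length and 0.15 with the number of copies. The 38 members above the median of extra bases had a median difference of 0.21, with 21 above and 0 below the controls. The other 39 had 0.06, with 11 and 5. Over all genes tested, 25.2% lay above and 25.6% below. Rpl9, with 346 extra bases, lay in the lower set.

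**Figure D5:**
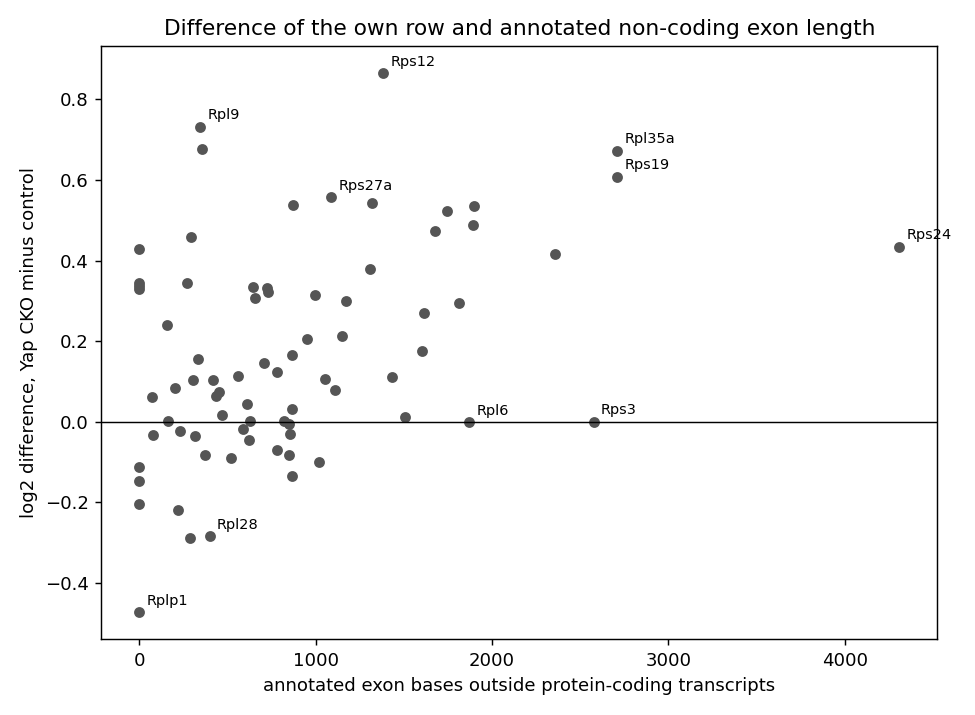
Log2 difference of the own row (Yap CKO minus control) against the number of annotated exon bases outside protein-coding transcripts, 1 point for each canonical ribosomal protein gene shown. Points to the right of 1000 bases lie mostly above 0, among them Rps12, Rps19 and Rpl35a, whereas Rplp1, with 0 such bases, is the lowest.

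Rows of some other RNA kinds had positive medians too. Introns of ribosomal protein genes house many small nucleolar RNAs, which guide chemical marking of ribosomal RNA. The 58 snoRNA rows inside members, 27 of them with reads, summed to 274 and 256 normalized counts in the controls and 463 and 503 in the knockouts. The 1500 other snoRNA rows summed to 1562 and 1456 against 1947 and 2152. Median log2 differences over all tested rows were 0.60 for snoRNA, 0.41 for antisense, 0.34 for processed transcripts and 0.22 for lincRNA, against -0.0087 for protein-coding genes. These medians are descriptions: limma called 0 of 63 snoRNA rows in either direction, 3 antisense rows higher and 4 lower, 9 processed transcripts higher and 0 lower, and 11 lincRNA rows higher and 8 lower. The snoRNA host members (30) had a median of 0.14 and the other 52 had 0.11. The part of intronic or unspliced RNA in the members' differences was not tested.

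Calls among other genes of the pathway are given by list. Over all genes tested, limma called 2.33%, edgeR 2.07% and DESeq2 5.54% in either direction. An unadjusted limma p under 0.05 was found for 18.9%. Of 20 further genes with terminal oligopyrimidine messages or a part in elongation, 1 was called higher and 0 lower, with a median of -0.02. That gene was Gas5, a non-coding snoRNA host whose spliced message begins with such a tract, at 2080 and 2065 in the controls and 3454 and 3731 in the knockouts (0.79 ± 0.09, adjusted p = 0.0146). Rack1, a protein bound to the small subunit, read 21653, 17602, 17908 and 17584 (-0.14, adjusted p = 0.622). Fau, made as a fusion with a ubiquitin-like protein, overlapped between groups at 89.2, 73.7, 86.5 and 96.0 (adjusted p = 0.733). Of 70 ribosome biogenesis genes, 1 rose and 0 fell, with 59 positive values and a median of 0.13: Taf1a, a subunit of the selectivity factor of RNA polymerase I, read 391 and 364 against 611 and 603 (0.68 ± 0.11, adjusted p = 0.0395). edgeR placed Taf1a just outside the threshold (adjusted p = 0.0504), and DESeq2 called it and Gnl3 higher. The 31 initiation factor genes had 0 called by limma, 4 at an unadjusted p under 0.05 and a median of -0.03. The 21 genes around mTOR had 0 called, 3 at an unadjusted p under 0.05 and a median of 0.01, and edgeR called 0 of either list. DESeq2 called Eif4a2 of the first list higher, and of the second Deptor higher and Rictor lower. The 12 ribosome quality control and chaperone genes (median 0.05) and the 19 cytosolic tRNA synthetase genes (median 0.02) had 0 called by limma or edgeR and 1 each at an unadjusted limma p under 0.05. DESeq2 called 1 of the first, Nemf, higher and 0 of the second. Gnl3, Eif4a2, Deptor, Rictor and Nemf are named after their values were seen.

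Mitochondrial ribosomal protein genes, which serve a separate ribosome, were set beside the cytosolic ones. Of 77 tested, 4 had an unadjusted limma p under 0.05, against 18.9% of all genes. Limma and edgeR called 0 of the 77, and DESeq2 called 1, Mrps10, higher. The median of the 77 was 0.01, with 41 positive and 36 negative. Among 10 genes of the Myc family and its partners all 3 tools called 0 higher. Limma and edgeR called 1 lower, to which DESeq2 added Mga, named after its value was seen. Over all genes, limma called 1.15% lower, edgeR 1.02% and DESeq2 3.18%. Mycn, the family member of the embryonic lung epithelium, fell from 948 and 751 to 359 and 345 (-1.26 ± 0.14, adjusted p = 0.0146), and Myc read 1428, 1511, 1768 and 1427 (0.11, adjusted p = 0.681).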

How the data were processed

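RNA was extracted from whole lungs with RNeasy columns and libraries followed the sequencing company's protocol (BGI), per the labels' protocols. The authors deposited 1 table of normalized read counts, a non-negative signal per Ensembl gene, with 2 control and 2 Yap CKO libraries. The submitters' processing notes list the build mm10, edgeR 3.18.1, DESeq 1.16.0, featureCounts 1.5.0-p1 and Bowtie2 2.2.9 without saying what each was used for. The annotation, the strand setting and the treatment of reads with several alignments are not given in the sources used here. Without a strand setting, overlapping and antisense genes cannot be told apart.

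In each library 100% of the values were whole multiples of 1 number, within 0.001 reads, so whole reads were recovered: 21285794 and 17756301 in Control 1 and 2, and 20552208 and 21333878 in Yap CKO 1 and 2. GENCODE M21 matched 52403 of 52636 identifiers. Values were tested as log2(normalized count + 1) with limma 3.58.1 (R 4.3.3, intensity trend, two-sided) in all genes with a mean of at least 10, with Benjamini-Hochberg adjustment. The fit had 2 residual degrees of freedom and 4.54 from the other genes. The ± beside a difference is its standard error. Count tests on the recovered reads used edgeR 4.0.16, which called 404 genes, and DESeq2 1.42.0, which called 1037. Copies were matched with blastn 2.17.0. The fits were tested on simulated data. Other scalings, filters, pseudocounts, a replicate block, a length and GC correction and leaving out each library were run as alternatives. Summing with matched copies, a crossed block and the share of reads with each library left out were added after seeing the data.

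The members, the lists and the naming rule were chosen with earlier results of these data known. The rule names every called member, the 6 largest differences in each direction, every paralog, the 5 highest and 5 lowest canonical members per kilobase, a list of members with known special roles, and called genes of the comparison lists. Some genes that the rule names are not reported here or drawn in the figures, though all counts and medians include them.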

Additional observations from a re-analysis of the deposited data

How the results depend on the processing

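In the fit described, 2 members were called higher and 0 lower, the median log2 difference of members was 0.11, and 4 genes of the comparison lists were called. Median-ratio, TMM and quantile scaling, a pseudocount of 0.5, a filter at a mean of 50 and edgeR kept both counts of members. Members called higher numbered 4 with equal library totals (which added Rpl30 and Rps27a), 0 without a filter, 0 without the intensity trend, 6 with DESeq2, 1 with length and GC removed (Rpl9), 0 with members scaled to equal sums, 0 when summed with pseudogenes matched by name and 0 when summed with copies matched by sequence. DESeq2 called 1 member lower. Leaving out 1 library in turn gave 0 to 23 members called higher, 0 to 1 lower and medians of 0.0025 to 0.26, where the lone sample of a group is assumed to vary like the other group. Comparison-list calls numbered 0 without a filter, 0 without the trend, 12 with DESeq2 and 0 to 19 with a library left out. Rps12 was called in 12 of 20 alternatives (adjusted p from 7.22e-05 to 0.370), as was Rpl9 (0.00184 to 0.750). The difference in the share of reads on members stayed positive without paralogs or with copies summed, and ran from -0.0255 (without Control 2) to 0.112 percentage points with a library left out. Equal library totals moved the median of all genes to 0.06, from -0.0050. With the replicate number as a block 1 member was called higher (Rps12, adjusted p = 0.0428) and 2 comparison-list genes were called. Same-numbered libraries deviated from their group means with a correlation of -0.36, so they share a number and no more is known. Crossed numbers, as a block, gave 5 members called higher, 9 comparison-list calls and 972 calls over all genes, against 342 with the numbers as labelled. The cause of these changes was not tested. With 2 libraries a group, differences of the size of their standard errors could not be resolved.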
